A study of Mus musculus with 272 samples.

Results

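Among mouse genes that carry only a catalogue name, those with symbols of the form Gm followed by digits or ending in Rik, 64 were transient at the 2-cell stage in these embryos. A member had a mean of at least 10 CPM, a count of reads scaled to a common library total, in the 4 2-cell transcriptome libraries. With 1 added to each mean, it was also at least 4 times as high there as in the zygote and as in the 4-cell transcriptomes. Of 1873 symbols of this kind in the table, 1828 remained after 1 of each set of identical rows was kept, and 344 of them reached 10 CPM in 2-cell embryos. The thresholds were met by 65, of which 4931428L18Rik and Gm29669 had identical values and count as 1 gene, which left 64 members, 18.6% of the 344. Of the 6711 other symbols at that level, 134 (2.00%) met the same thresholds. Because the zygote, 2-cell and 4-cell transcriptomes chose the members, their levels there are given as a description and without a test.

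The study followed mouse oocytes and embryos over 8 stages: germinal vesicle (GV) oocyte, metaphase II (MII) oocyte, zygote, 2-cell, 4-cell and 8-cell embryo, morula and blastocyst. At each stage 3 lysates of about 100 oocytes or embryos, held with cycloheximide, which stops ribosomes on the transcript, were separated on sucrose gradients into 10 fractions, and RNA of each fraction was sequenced. Another 4 pools of 20 per stage, from the same batch, gave transcriptomes. The labels used here give no strain, genotype, age or culture condition and name no agent but the cycloheximide that all gradients share. Fractions 1 to 5 are called light and 6 to 10 heavy; fraction 1 is taken as the lightest, which the labels do not state, and heavy fractions as those with more ribosomes per transcript. Each gradient's mean CPM over its 5 fractions is 1 value. Every fraction is scaled to its own library and weighs the same, whatever amount of RNA it held. Heavy and light levels are therefore not amounts of RNA. The labels call the pools separate samples, and p-values measure only the spread between them.

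At the 2-cell stage the mouse embryo starts its main wave of transcription while stored maternal RNA is being removed. Genes such as Zscan4, a telomere-linked zinc finger family, the eIF1A-like Eif1ad genes and Zfp352 are switched on for about this stage alone, and many such genes lie in young tandem arrays with few named copies elsewhere. Ribosomes load onto a transcript as it is translated, so its place in a sucrose gradient is commonly read as how many ribosomes it carries. Whether the members' RNA in heavy fractions was bound by ribosomes was not tested.

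In RefSeq (GRCm38.p6) 62 of the 64 symbols matched a gene: 36 were annotated as protein-coding, 15 as pseudogenes and 11 as noncoding. They lay on 19 chromosomes. By their GENCODE transcripts, 36 members fell into 8 families, defined by at least 80% identity over at least 50% of the transcript. The largest held 9 genes on chromosome 7 (Gm10662, Gm10668, Gm4526, Gm4567, Gm5157, Gm5891, Gm6176, Gm6882 and Gm6902), each 95.4% to 99.9% identical to another. The second joined 7 genes on chromosome 4 (Gm11236, Gm11238, Gm11239, Gm11487, Gm11756, Gm11757 and Gm428) with B020004C17Rik on chromosome 14. The next held 4931428L18Rik and Gm9458 on chromosome 1 and Gm4312, Gm4340 and Gm8689 on chromosome 10. The one on chromosome 13, was Gm21818, Gm21761, Gm20767 and B020031M17Rik, which are 87.2% to 93.4% identical to Tcstv3, a 2-cell gene of a small tandem family. Another was Gm10354, Gm17019, Gm21083 and Gm9758 on chromosome 5, whose nearest named genes were Speer4c, Speer4d and Speer4e. Gm11839 with Gm11841, Gm14305 with Gm14410, and Gm47985 with Gm8947 made 3 pairs. Since reads from near-identical copies can be split or lost between them, values of single members of a family are less certain than the family's sum. Reads may also be shared with a named gene that matches a member over 100% of its transcript. Examples are Gm12183 with Ddx5 (98.5% identity), Gm5576 with Eif4a3 (96.8%), Gm9176 with Ciart (96.7%) and Gm5117 with Tgs1 (95.0%). The part of such reads in their levels was not tested.

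The start sites of 36 members were in the RefSeq promoter table, and pieces of 6 are shown because they carry the letters that families share. Each gives the 160 bases before the start of the gene, 5′ to 3′ on the gene's strand. Capitals mark the searched motifs: TATAAA, the TATA box; TAATCC, read by paired-like homeodomain factors such as the Obox proteins; and TCAAGGNCA, read by the nuclear receptor Nr5a2. TTTATAAA holds TATAAA on both strands, and GGATTA is TAATCC on the other strand. The windows are chr4:73405073-73405232 (minus strand) for Gm11487, chr14:57014974-57015133 (plus) for B020004C17Rik, chr7:22719711-22719870 (minus) for Gm4567, chr7:21921292-21921451 (minus) for Gm5891, chr10:104193882-104194041 (plus) for Gm4340 and chr13:119913469-119913628 (minus) for Gm21761.
Gm11487: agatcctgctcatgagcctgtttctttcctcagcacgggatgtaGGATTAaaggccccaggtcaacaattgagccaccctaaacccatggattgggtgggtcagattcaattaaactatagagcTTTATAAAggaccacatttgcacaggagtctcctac
B020004C17Rik: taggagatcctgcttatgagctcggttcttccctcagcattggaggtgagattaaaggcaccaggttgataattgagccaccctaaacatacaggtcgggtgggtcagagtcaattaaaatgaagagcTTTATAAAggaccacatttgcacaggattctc
Gm4567: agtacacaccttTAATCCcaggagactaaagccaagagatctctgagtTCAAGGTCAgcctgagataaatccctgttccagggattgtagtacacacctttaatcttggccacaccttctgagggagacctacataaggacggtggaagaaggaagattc
Gm5891: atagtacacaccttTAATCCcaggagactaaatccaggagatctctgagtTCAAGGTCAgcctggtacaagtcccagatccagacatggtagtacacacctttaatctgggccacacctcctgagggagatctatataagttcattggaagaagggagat
Gm4340: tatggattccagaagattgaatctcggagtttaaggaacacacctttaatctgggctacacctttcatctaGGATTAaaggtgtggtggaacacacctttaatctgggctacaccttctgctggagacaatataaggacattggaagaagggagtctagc
Gm21761: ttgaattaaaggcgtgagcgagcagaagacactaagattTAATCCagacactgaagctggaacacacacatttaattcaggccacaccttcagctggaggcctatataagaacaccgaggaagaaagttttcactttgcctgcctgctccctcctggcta

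The first 2 windows, from different chromosomes, shared an unbroken run of 32 bases, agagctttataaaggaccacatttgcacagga, which holds the TATA letters and starts 41 bases before the start of Gm11487 and 37 before that of B020004C17Rik. Over their aligned part the RefSeq windows of this pair were 86.1% identical. Gm4567 and Gm5891 were 89.2% identical. Gm4340, of another family and chromosome, shared a run of 19 bases with Gm5891 and one of 15 with Gm4567. Gm21761 shared 12 bases with Gm4567. In windows of 250 bases before to 50 after the start, searched on both strands, TAATCC was in 9 of 36 members (25%), against 14.8% of 88 other symbols that met the thresholds and 7.16% of 27025 genes. TCAAGGNCA was in 3 members (8.33%), in 0 of the 88 and in 1.61% of all. TATAAA was in 7 members (19.4%), 13.6% and 14.2%. The motif of Dux, an early activator of 2-cell genes, was in 0 members, 0 of the 88 and 0.0407% of all. These are matches of letters, and windows of 1 family share sequence, so they are not independent of each other.

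In the transcriptomes the 64 members together gave 5172 to 5991 CPM in the 2-cell libraries. They gave 209 to 315 CPM in zygotes and 221 to 393 in 4-cell embryos. In GV oocytes the sum was 411 to 465, in MII oocytes 99.9 to 153, and from the 8-cell stage on between 113 and 240. The median member had a mean of 25.8 CPM in 2-cell embryos, 0.330 in zygotes and 0.884 in 4-cell embryos. For 63 of 64 members every 2-cell library was above every zygote and 4-cell library; 13.3% of all genes showed this, and the rule itself asks for nearly this. CPM is a share of each library, so a higher level and a smaller total RNA content cannot be told apart.

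**Figure D1:**
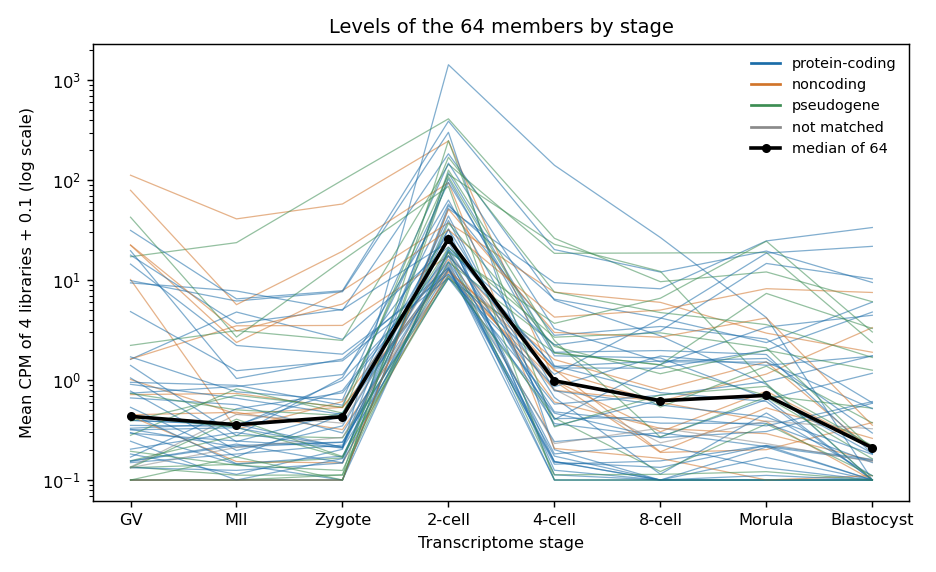
Mean CPM of the 4 transcriptome libraries at each stage, with 0.1 added and on a log axis, 1 thin line per member coloured by RefSeq class; the black line is the median of the 64. The median stands at 25.8 CPM (before 0.1 is added) at the 2-cell stage, which chose the members, and at 0.884 CPM or less at every other stage.

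Closest to the limits of the rule were Gm11841, Gm10925 and 9130227L01Rik inside, with smaller ratios of 4.04, 4.08 and 4.16. Just outside were Gm14399 at 3.81, Gm17751 at 3.71 and Gm10222 at 3.67. Gm17751 had a mean of 951 CPM in 2-cell embryos against 256 CPM in zygotes.

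B020004C17Rik, annotated as protein-coding on chromosome 14, gave 1437, 1237, 1582 and 1471 CPM in the 4 2-cell libraries (1431 ± 144, SD, n = 4). Its 4-cell libraries gave 165, 44.8, 198 and 156 CPM, its 8-cell mean was 26.6 ± 5.33 CPM, its morula mean 4.12 ± 2.08, and it was listed at 0 in blastocysts. It came down in steps over the later stages, with no overlap between the 2-cell and 4-cell libraries. Its relative Gm11487 gave 308, 311, 322 and 267 CPM (302 ± 24.1) and had a zygote mean of 7.56 ± 1.08 and a 4-cell mean of 0.101. Per kb of transcript B020004C17Rik had 600.2 CPM and Gm11487 228 CPM, and the family of 8 summed to 1686 to 2057 CPM over the 4 libraries.

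Gm10925 is a pseudogene on chromosome 1 whose transcript is 100% identical over 100% of its length to mt-Atp6, a mitochondrial gene for a subunit of ATP synthase. It gave 123, 570, 416 and 538 CPM in the 2-cell libraries (412 ± 204) and 79.8, 58.4, 145 and 117 CPM in zygotes. It was the only member whose lowest 2-cell library overlapped the zygote range. Per kb it had 607 CPM, next to B020004C17Rik. Reads from mt-Atp6 cannot be told from reads of Gm10925 by sequence, and their part in its level was not tested.

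Gm3604, a protein-coding gene on chromosome 13 with 79.6% identity to the zinc finger gene Zfp808, gave 253, 341, 450 and 517 CPM (390 ± 117). Gm5698, a pseudogene on chromosome 1, gave 273, 243, 276 and 207 CPM (249.5 ± 32.1). 4931428L18Rik, a noncoding gene on chromosome 1, gave 207, 313, 259 and 207 CPM (247 ± 50.7). The last was already present in GV oocytes, at 121, 99.9, 132 and 96.7 CPM, and lower in zygotes, at 57.8 ± 6.13.

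Among the genes related to Tcstv3, Gm21818 gave 151, 202, 193 and 190 CPM (184 ± 22.6) and Gm21761 gave 140, 131, 173 and 149 CPM (148 ± 18.3). B020031M17Rik had a mean of 103 ± 10.5 CPM and Gm20767 one of 95.0 ± 14.5 CPM. Together the 4 summed to 453 to 577 CPM in the 2-cell libraries.

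Gm6978, a pseudogene on chromosome 18, gave 167, 159, 184 and 167 CPM (169.5 ± 10.6), the smallest SD in CPM among the 12 members with the highest CPM. Gm12183, a pseudogene 98.5% identical to the RNA helicase gene Ddx5, gave 145, 126, 159 and 147 CPM (144 ± 13.4). Gm4971, a transcribed pseudogene, gave 158, 99.2, 116 and 133 CPM (126 ± 24.9). Gm4340 gave 136, 89.2, 112 and 136 CPM (118 ± 22.4). Gm4971 was listed at 0 in every GV, MII and zygote library, whereas Gm12183 was seen at 18.5 CPM in 4-cell embryos, 18.6 at the 8-cell stage and 18.8 in morulae.

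The 9 genes of the chromosome 7 array were each low, with means of 12.7 to 63.3 CPM, and summed to 163.5 to 252 CPM per 2-cell library. The 4 relatives of the Speer4 genes summed to a mean of 80.7 CPM. The pairs Gm11839 with Gm11841, Gm14305 with Gm14410, and Gm47985 with Gm8947 summed to 25.3, 34.3 and 33.2 CPM. No mean of a member of the chromosome 7 array was above 1.30 CPM in GV oocytes or 1.27 CPM in 4-cell embryos.

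Outside the stages of the rule the members differed among themselves. The 2-cell stage was the highest of the 8 for 61 members. The other 3, picked out after their values were seen, were Gm20826 (19.6 ± 2.73 CPM in GV oocytes, 13.2 ± 1.38 in 2-cell embryos), Gm9176 (24.5 ± 13.1 in morulae, 19.1 in 2-cell embryos) and Gm4779 (21.7 ± 3.88 in blastocysts, 11.4 ± 7.86 in 2-cell embryos). The highest of the other stages, or for these 3 the highest stage, was the GV oocyte for 21 members, the 4-cell embryo for 17, the morula for 9, the blastocyst for 7, the zygote for 5, the 8-cell embryo for 4 and the MII oocyte for 1. Many of these values were traces, such as 0.194 CPM for Gm11756 in GV oocytes and 0.0212 CPM for Gm4526 in morulae, so their order means little. Gm20826 is annotated on chromosome Y, and 73.4% of its transcript is 94.5% identical to the named gene Acer3. Whether its reads, in oocytes or later, came from its own locus was not tested. Gm15691, noncoding, was almost as high in GV oocytes, at 81.4, 71.7, 86.2 and 77.6 CPM, as in 2-cell embryos (94.5 ± 9.26). It was lower in zygotes, at 19.4 ± 4.55, and had a mean of 0.107 CPM in 4-cell embryos. Gm8609, a pseudogene 81.0% identical to a Gapdh pseudogene, had 42.6 ± 4.1 CPM in GV oocytes, 15.7 ± 2.6 in zygotes and 86.8 ± 6.68 in 2-cell embryos, and was listed at 0 from the 4-cell stage on. 2610318N02Rik, protein-coding, had 51.9 ± 8.87 CPM in 2-cell embryos and 27.1 to 41.9 CPM in blastocysts.

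The step from GV to MII oocytes, which the rule did not use, came with a fall of most members tested. MII oocytes lie between GV oocytes and zygotes, and the rule held zygote levels low, which leans this step towards falls. With no filter the median log2 change was -0.065 over 59 members and -0.12 over all genes. The count over tested members is therefore no support by itself. Here 11 of 17 members tested fell and 1, 9030624G23Rik, rose, by limma at an adjusted p under 0.05 and a change of at least 1 on the log2(CPM + 1) scale. Of all 11324 genes tested, 43.9% were called, 11.8% higher and 32.1% lower. The median change was -2.08 over the tested members and -0.19 over all genes. 4931428L18Rik went from 112 ± 16.7 to 40.9 ± 11.4 CPM (log2 change -1.46 ± 0.17 SE, adjusted p = 1.66e-07). Gm15691 went from 79.2 ± 6.12 to 5.59 ± 4.17 CPM (-3.78 ± 0.26, adjusted p = 8.08e-11). Gm8609 went from 42.6 ± 4.1 to 2.60 ± 0.499 CPM (-3.60 ± 0.17, adjusted p = 1.6e-13). The others called lower were Gm20826, 1700010D01Rik, Gm11413, Gm50340, Gm4779, Gm3604, Gm14410 and Gm14305. The other members were below 1 CPM in too many of these libraries to be tested. With quantile normalization 3278 of 5735 calls over all genes were higher, against 1331 of 4966 here, and 3 members were higher and 10 lower.

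From morula to blastocyst 7 of 22 members tested fell and 1, 9530059O14Rik, rose. Of 11740 genes tested 32.6% were called, 23% higher and 9.61% lower, and the median change was -0.69 over the tested members and 0.28 over all genes. Those called lower were Gm9176, Gm12183, B020004C17Rik, Gm8016, Gm4340, 4930579F01Rik and Gm3604. B020004C17Rik fell from 4.12 ± 2.08 CPM to a value listed at 0. The 3 members highest in blastocysts did not pass: 2610318N02Rik (0.42 ± 0.20 SE, adjusted p = 0.0828), Gm4779 (0.30 ± 0.27, adjusted p = 0.371) and Gm773 (-0.86 ± 0.41, adjusted p = 0.0808), all by limma. With quantile normalization 1729 of 3437 calls over all genes were higher, against 2695 of 3823 here, and 12 members were lower and 0 higher.

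On the 2-cell gradients the members lay towards the heavy end. Their summed heavy level was 2450, 2775 and 2877 CPM in gradients A, B and C, against 1190, 1778 and 1718 CPM in the light fractions. Heavy was above light in each of the 3 gradients for 32 of 64 members, against 12.2% of all genes, and below in each for 9, against 19.8%. All genes include many that 2-cell embryos hardly held. Among other genes at 10 CPM or more in 2-cell transcriptomes these shares were 21.4% and 19.1%. Among the 134 named genes that met the thresholds of the rule they were 37.3% and 16.4%. Heavy and light values did not overlap in 26 members with heavy higher (7.87% of all genes) and in 2 with heavy lower (13.9%). The median difference, heavy minus light, was 0.98 on the log2 scale over all 64 members and -0.12 over all genes, with no filter on low values. The share of a member's gradient CPM in heavy fractions had a median of 68.6% to 76.3% in the 3 gradients, against 50.9% to 52.1% for other genes at 10 CPM or more in 2-cell embryos. It was 67.7% to 72.4% for the named genes that met the same thresholds and 46.7% to 49.4% for the other Gm and Rik symbols at that level. Because every fraction weighs the same, this is not the share of a gene's transcripts that lay in heavy fractions.

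**Figure D2:**
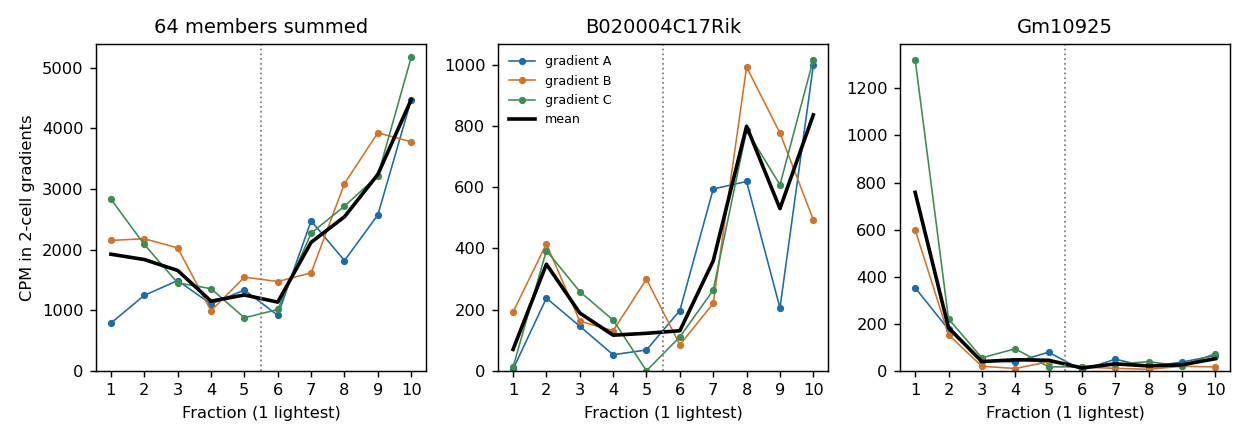
CPM along the 10 fractions of the 2-cell gradients for the sum of the 64 members, for B020004C17Rik and for Gm10925, with 1 line for each of gradients A, B and C and the mean. The summed mean was highest in fraction 10, at 4473 CPM, and Gm10925 was highest in fraction 1, at 353, 599 and 1323 CPM.

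By mean profile 22 members were highest in fraction 10, 14 in fraction 9, 6 in fraction 8, 3 in fraction 7 and 5 in fraction 6. The other members peaked in fractions 1 (7 members), 2 (1), 3 (3) and 5 (3). Fraction 1 had few reads, 0.337 to 0.667 M reads per library, against 5.52 to 17.8 M reads in fractions 2 to 10. Protein-coding members had a median heavy share of 68.5% to 77.2% (50.7% to 52.1% for other protein-coding genes), noncoding members 54.5% to 71.1% (36.3% to 48.3%) and pseudogenes 58.6% to 83.4% (58.4% to 67.8%). Of the named genes that met the thresholds, 111 protein-coding genes had medians of 53.2% to 68.0% and 11 pseudogenes 81.7% to 90.2%, above the member pseudogenes in each gradient. The 1 noncoding gene among them had 0% to 49.9%. In each class the lowest of the members' 3 gradient medians was 54.5% or more.

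Few single members passed the test of heavy against light with 3 gradients. By limma 1 of 58 members tested was called higher in heavy fractions and 0 lower, where 1.9% of 9889 genes were called, 0.809% higher and 1.09% lower. An unadjusted p under 0.05 was reached by 15 of the 58 members and by 22.1% of all genes tested. The edgeR test on recovered reads called 0 members higher and 0 lower, and limma fitted over all stages called 26 higher (10.01% of all genes) and 5 lower (16.6%). The member called was Gm21761, related to Tcstv3, with 238, 153 and 140 CPM in heavy and 20.1, 30.6 and 25.6 CPM in light fractions of gradients A, B and C. Its groups did not overlap, and the difference was 2.73 ± 0.55 (SE) on the log2 scale with an adjusted p of 0.04998, just under the threshold. With the gradient as a block, which pairs the heavy and light values of 1 lysate, the adjusted p was 0.0982 and 0 members were called. Leaving out any 1 gradient also ended the call, with adjusted p between 0.166 and 0.189 by limma, but then 0 of all genes were called.

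The other relatives of Tcstv3 lay the same way without passing. Gm20767 had 93.2, 129 and 152 CPM in heavy against 9.37, 18.6 and 8.21 CPM in light fractions (3.32 ± 0.70, limma adjusted p = 0.0537). B020031M17Rik had 160, 125 and 102 against 29.0, 24.8 and 34.2 CPM (2.09 ± 0.56, adjusted p = 0.0698). Gm21818 had 137, 255 and 159 against 66.5, 78.0 and 41.5 CPM (1.55 ± 0.50, adjusted p = 0.113). In all 4 genes heavy was above light in every gradient, and their mean heavy share ran from 74.4% to 91.1%.

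B020004C17Rik had 523, 514 and 557 CPM in heavy and 102, 240 and 166 CPM in light fractions, a difference of 1.73 ± 0.38 (limma adjusted p = 0.0540) with no overlap. Gm11487 of the same family had 121, 75.0 and 83.0 against 149, 83.9 and 110 CPM (-0.29 ± 0.49, adjusted p = 0.779), lower in heavy fractions of each gradient. The 2 genes with a shared promoter run thus lay differently on the gradient, a difference between genes that was not tested. Over the family of 8, heavy was above light in all gradients for 5 members.

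The largest differences were those of Gm6978, 1700013H16Rik, Gm3604, Gm8016 and Gm12183. Over the 3 gradients of 10 fractions, they were above 0 in 14, 13, 9, 25 and 19 fractions, in that order. Where few fractions held a gene, single libraries can carry such a difference. Gm6978 had 40.1, 38.4 and 17.3 CPM in heavy and 0.214, 0.0752 and 0.0482 CPM in light fractions (4.80 ± 1.04, limma adjusted p = 0.0540). 1700013H16Rik, a protein-coding gene on the X chromosome, had 17.2, 237 and 22.2 against 0.170, 0.164 and 3.35 CPM (4.68 ± 1.40, adjusted p = 0.0915). Gradient B alone gave most of its heavy level.

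Gm3604 had 30.6, 52.7 and 3.47 CPM in heavy fractions and was listed at 0 in every light fraction (4.30 ± 1.16, limma adjusted p = 0.0715). Gm8016, noncoding, had 69.6, 23.3 and 65.3 against 1.59, 1.11 and 4.00 CPM (4.01 ± 1.11, adjusted p = 0.0767). Gm12183 had 58.9, 1.47 and 136 against 0.0222, 3.90 and 1.12 CPM (3.63 ± 1.66, adjusted p = 0.240). In gradient B the order of Gm12183 was turned, so its groups overlapped.

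At the other end were Gm8609, Gm10925, Gm4779, Gm9176 and 1700010D01Rik, which were above 0 in 19, 30, 22, 18 and 9 fractions, in that order. Gm8609 had 0.0454, 41.2 and 10.2 CPM in heavy against 90.4, 89.3 and 119 CPM in light fractions (-3.66 ± 1.29, limma adjusted p = 0.139). Gm10925 had 34.2, 13.5 and 35.4 against 138, 164 and 342 CPM (-2.90 ± 0.64, adjusted p = 0.0540). These were the 2 members with every heavy value below every light one.

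Gm4779, protein-coding on the X chromosome, had 2.83, 48.9 and 1.97 CPM in heavy and 31.5, 50.2 and 131 CPM in light fractions (-2.86 ± 1.27, limma adjusted p = 0.228). Gm9176, a pseudogene 96.7% identical to the clock repressor gene Ciart, differed by -2.01 ± 1.68 (adjusted p = 0.522). 1700010D01Rik, noncoding, differed by -1.86 ± 1.16 (adjusted p = 0.389). Of the members with the highest CPM, Gm5698 (0.90 ± 0.53, adjusted p = 0.357), 4931428L18Rik (0.55 ± 0.72, adjusted p = 0.704), Gm4340 (2.55 ± 0.88, adjusted p = 0.132) and Gm4971 (2.40 ± 1.05, adjusted p = 0.223) were also not called. The members too low to be tested were 1700069L16Rik, 4933440M02Rik, 9130227L01Rik, Gm11839, Gm14305 and Gm773.

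**Figure D3:**
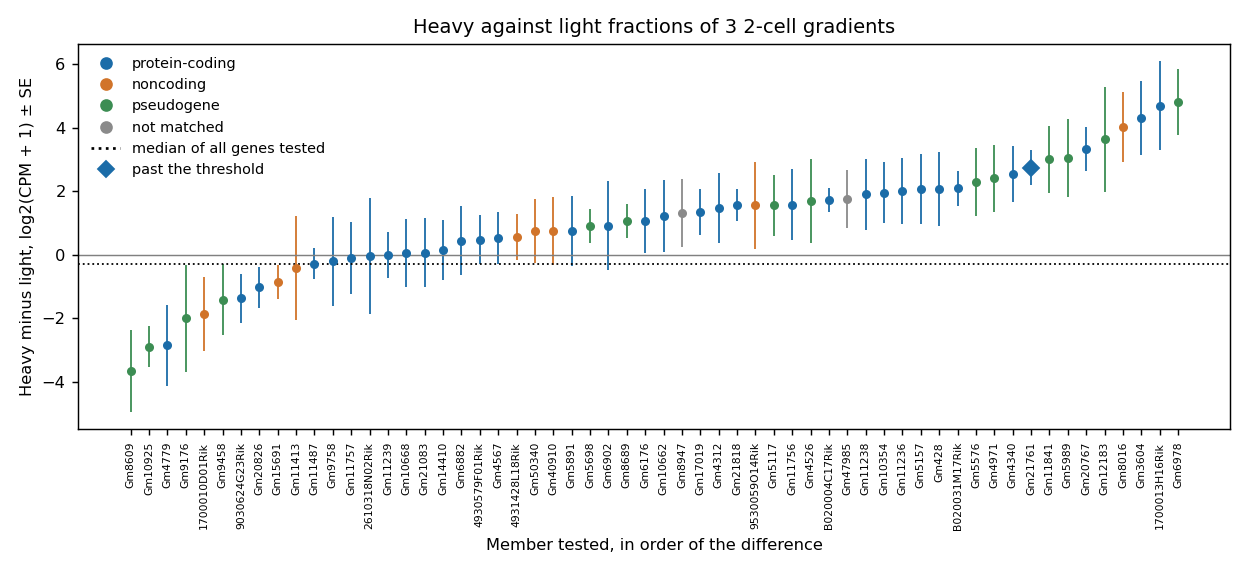
Difference of heavy minus light fractions in the 2-cell gradients, on the log2(CPM + 1) scale, for the 58 members tested, as points with their standard errors (n = 3 gradients); the diamond is Gm21761, the member called, and the dotted line the median of all genes tested. Differences run from -3.66 for Gm8609 to 4.80 for Gm6978, and the median of all genes lies at -0.30.

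The members' summed heavy level was above the light level in 3 of 3 gradients of 2-cell embryos and in 0 of 3 at each of the other 7 stages. In 4-cell embryos it was 412, 709 and 572 CPM against 1208, 1465 and 1244 CPM in the light fractions, and in zygotes 251, 248 and 156 against 374, 354 and 352 CPM. In 4-cell embryos heavy was above light in all gradients for 1 member (8.42% of all genes) and below for 12 (18.9%). In zygotes these counts were 3 (20.8%) and 17 (24.5%). The counts below light are thus close to the shares of all genes at both stages. The median member had a higher mean in heavy than in light fractions also in MII oocytes (0.203 against 0.175 CPM) and blastocysts (0.192 against 0.112 CPM), at levels under 1 CPM. The 4-cell sum held much of B020004C17Rik, at 134, 332 and 176 CPM in heavy and 733, 598 and 719 CPM in light fractions. Gm15691 had a mean of 108 CPM in heavy fractions of zygotes. 2610318N02Rik had 133 CPM in those of morulae and 64.6 CPM in those of blastocysts. At the 7 stages other than 2-cell the median member's heavy mean was only 0.0621 to 0.496 CPM. There 2 to 13 members had a heavy mean of at least 10 CPM, against 43 in 2-cell embryos. The gradients of different stages were not tested against each other for this ratio.

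Heavy fractions of other gradients showed the arrival of the members from zygote to 2-cell embryo, in samples the rule did not use although the contrast has its direction. By limma 39 of 53 members tested rose and 0 fell, where 18.1% of 10535 genes were called, 4.68% higher and 13.4% lower. The 3 heavy values of 2-cell embryos lay above all 3 of zygotes for 46 of 64 members (8.67% of all genes) and below for 0 (23%). The median change over all 64 was 3.23 on the log2 scale, against -0.37 over all genes, with no filter. Members pass the filter mostly through the 2-cell group, so the count over tested members is no support by itself. An unadjusted p under 0.05 was reached by 42 of the 53, and by 31.4% of all genes tested. The edgeR test on recovered reads called 25 of 51 members higher (3.68% of all genes) and 0 lower. Leaving out single gradients gave 16 to 39 (16 without zygote gradient A, and 20 without B or without C), where the share of all genes called higher was 1.82% without zygote gradient A. With quantile normalization 653 of 1140 calls over all genes were higher, against 493 of 1904 here, and the members' count stayed at 39.

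B020004C17Rik went from a mean of 0.0555 ± 0.0373 CPM in heavy fractions of zygotes to 531 ± 23.0 CPM in 2-cell embryos (8.98 ± 0.64 SE, limma adjusted p = 0.00189). Gm11487 rose from 4.44 ± 7.58 to 92.9 ± 24.4 CPM (5.19 ± 1.20, adjusted p = 0.0246). Gm5698, B020031M17Rik, Gm4340 and Gm4971 were listed at 0 in all heavy fractions of zygotes. Against a level of 3 reads in each of those libraries, 0.168 CPM, their heavy levels in 2-cell embryos were at least 764-fold, 770-fold, 313-fold and 224-fold higher. All 4 were called.

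The relatives of Tcstv3 rose together, with changes of 6.45 ± 0.97 for Gm21761 (limma adjusted p = 0.00875), 6.55 ± 0.84 for Gm20767 (adjusted p = 0.0088) and 4.68 ± 0.72 for Gm21818 (adjusted p = 0.0088). Gm6978 (4.80 ± 0.77, adjusted p = 0.0089) and Gm3604 (4.06 ± 1.04, adjusted p = 0.0352) also rose. Not called were 4931428L18Rik (17.9 ± 2.29 to 120 ± 81.8 CPM, 2.37 ± 0.76, adjusted p = 0.0744), Gm10925 (1.93 ± 0.85, adjusted p = 0.173) and Gm12183 (3.47 ± 1.54, adjusted p = 0.176). Gm15691, which oocytes and zygotes also held, had 139, 125 and 61.1 CPM in heavy fractions of zygotes and 61.3, 107 and 124 CPM in those of 2-cell embryos, so the groups overlapped.

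From 2-cell to 4-cell embryos 29 of 52 members tested fell in heavy fractions and 0 rose, where 29.2% of 8390 genes were called, 11.6% higher and 17.5% lower. The heavy values of 4-cell embryos lay below all those of 2-cell embryos for 43 of 64 members (17.2% of all genes) and above for 1 (15.6%), which was 1700069L16Rik. The median change over all 64 was -2.74, against -0.01 over all genes, with no filter. Here the members pass the filter mostly through the 2-cell group, where the rule made them high, so this count too is no support by itself. An unadjusted p under 0.05 was reached by 38 of the 52, and by 41.4% of all genes tested. The edgeR test called 7 of 50 members lower (8.43% of all genes) and 0 higher. Leaving out single gradients gave 8 to 25 (8 without 4-cell gradient B, 13 without C and 16 without A), with 7.45%, 9.87% and 10.4% of all genes. A fit with no filter called 10 of 64 lower (4.79% of all genes), and one over all stages 44 of 52 (32.8%). The 4-cell libraries were uneven, with 0.141 to 21.6 M reads per fraction, against 4.32 to 29.4 M reads in zygotes. Where both other gradients of a stage held at least 100 CPM of a member in a fraction, the remaining library held 0 reads in 6 of 83 cases (7.23%) in 2-cell and 3 of 22 (13.6%) in 4-cell embryos, and in 0 of 13 in zygotes.

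Gm5698 went from 91.4, 137 and 156 CPM to values listed at 0 in all heavy fractions of 4-cell embryos (-6.98 ± 0.94 SE, limma adjusted p = 0.0057). Gm21818 fell by 6.70 ± 0.98 on the log2 scale (adjusted p = 0.0065), B020031M17Rik by 6.44 ± 0.96 (adjusted p = 0.0067) and Gm21761 by 6.22 ± 0.96 (adjusted p = 0.00708). 4931428L18Rik (-5.93 ± 1.19, adjusted p = 0.0121), Gm4340 (-5.31 ± 0.95, adjusted p = 0.0089) and Gm4971 (-4.34 ± 1.13, adjusted p = 0.0281) also fell. These 7 were all near 0 in heavy fractions of 4-cell embryos, with means of at most 1.74 CPM.

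B020004C17Rik, the member with the highest CPM, kept 134, 332 and 176 CPM in heavy fractions of 4-cell embryos and was not called (-1.41 ± 0.47, limma adjusted p = 0.0596), although its groups did not overlap. Gm11487 (-4.85 ± 1.56, adjusted p = 0.0545), Gm12183 (-4.70 ± 1.53, adjusted p = 0.0570) and Gm20767 (-4.07 ± 1.37, adjusted p = 0.0631) also missed the threshold. Gm6978 (-2.32 ± 1.45, adjusted p = 0.278), Gm10925 (-0.78 ± 1.03, adjusted p = 0.608) and Gm3604 (-0.28 ± 1.94, adjusted p = 0.927) differed less. The 4-cell heavy values of Gm3604 were 0.035, 94.3 and 41.7 CPM, a range that held all its 2-cell values.

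**Figure D4:**
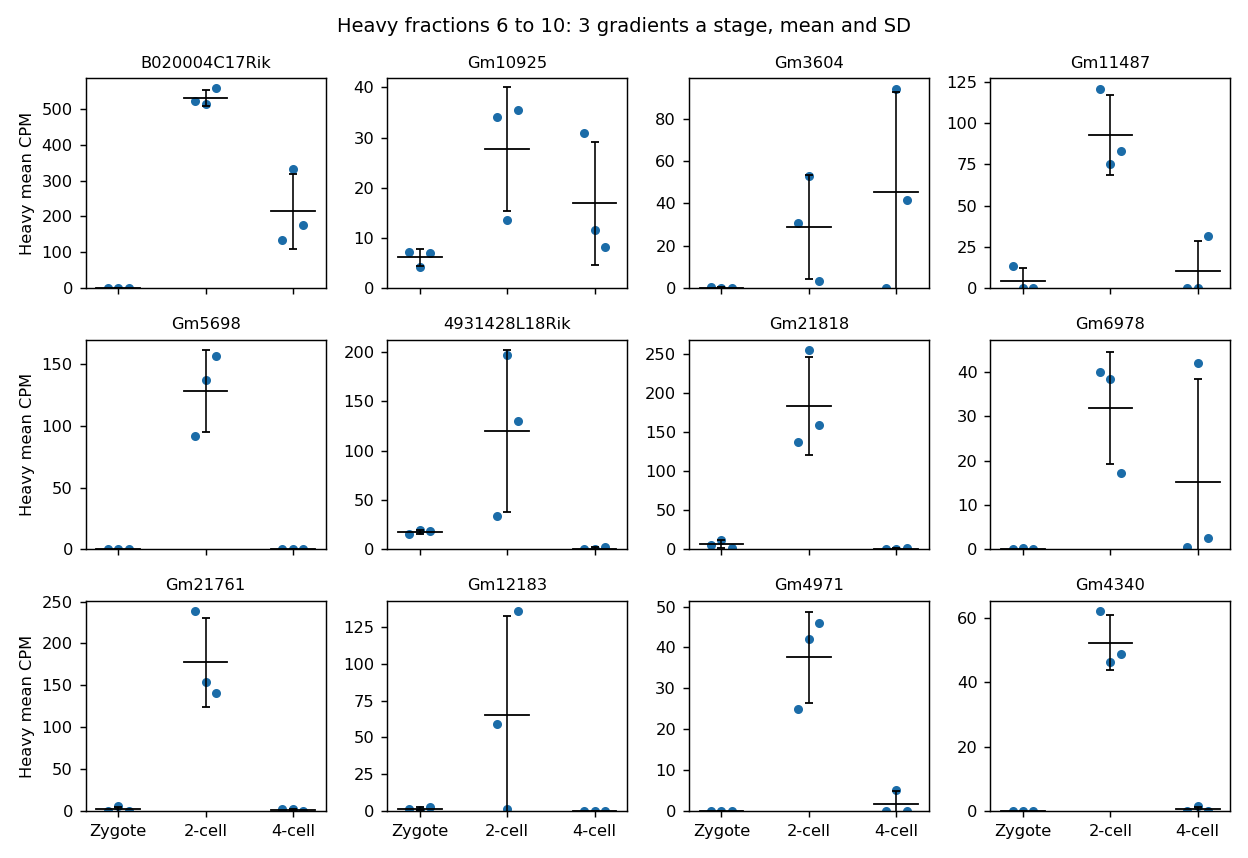
Mean CPM of heavy fractions in each of 3 gradients of zygotes, 2-cell and 4-cell embryos for the 12 members highest in 2-cell transcriptomes, with the mean and SD. The 3 points of B020004C17Rik in 2-cell embryos sit at 514 to 557 CPM, above its 4-cell points at 134 to 332 CPM.

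Named genes of the 2-cell stage gave a measure of the same stage. Of 27 such genes 20 were in the table, and 15 of these met the thresholds of the rule. The thresholds lean their changes in heavy fractions the same way. In heavy fractions 16 of 17 tested rose from zygote to 2-cell (4.68% of all genes) and 12 of 20 fell to the 4-cell stage (17.5%). In heavy against light fractions of 2-cell embryos 4 of 18 were called higher (0.809% of all genes), Zscan4d, Tdpoz4, Eif1ad3 and Eif1ad7, and 0 lower (1.09%). The list's median difference was 1.48. From GV to MII oocytes 2 of 3 tested fell (32.1% of all genes), and from morula to blastocyst 9 of 9 (9.61%). This list was chosen with results of these data known and is no independent evidence. Of 15 factors linked to genome activation 14 were in the table and only Obox3, a homeobox gene, met the thresholds. In heavy fractions Dppa4, Obox3 and Gabpa rose and Obox2 fell from zygote to 2-cell, and 3 rose and 5 fell from 2-cell to 4-cell. Between heavy and light fractions of 2-cell embryos Obox5 was called higher, 1 of 13 tested (0.809% of all genes).

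Markers of other cells were checked beside these results. The 7 markers of 2-cell embryos summed to 2209 to 3011 CPM in the 2-cell transcriptomes, 29.7 to 43.8 in zygotes and 30.9 to 62.1 in 4-cell embryos. The 9 oocyte markers went from 13407 to 14414 CPM in zygotes through 4966 to 6137 in 2-cell to 73.6 to 91.3 CPM in 4-cell embryos. Cumulus or granulosa cell markers, 4 of 10 in the table, gave 5.60 to 13.0 CPM in 2-cell embryos, with Inha at 0. In zygotes they gave 48.1 to 60.0 CPM, with Inha and Hsd17b1 at 0. At each of these stages only 1 of the 4 had a mean of at least 1 CPM. Sperm markers, 3 of 6, gave 8.80 to 12.4 CPM in 2-cell embryos, where 1 of the 3 had a mean of at least 1 CPM. Trophectoderm and inner cell mass markers gave 62.5 to 85.3 and 23.8 to 45.7 CPM there and 2192 to 2818 and 191 to 259 CPM in blastocysts. The part of other cells in the members' levels was not tested. Depth was 11.2 to 24.3 M reads in the transcriptomes, and between any 2 libraries of 1 group the counts differed by more than sampling noise.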

How the data were processed

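Per the labels' protocols, RNA of single gradient fractions and of whole pools was amplified with a Smart-seq kit, tagmented and sequenced as paired ends. Per the submitters' processing notes, the tools were Trim Galore 0.6.7, FastQC, HISAT2 2.2.1, featureCounts 2.0.1 and edgeR, with the build GRCm39. The authors deposited 1 table of CPM for 15854 symbols and 272 libraries. In 9 libraries the deposited columns exceeded the common total, were recorded as signal and were used as CPM. CPM has no length scaling, and 100% of values were whole reads within 0.05 reads. Letters of the 2-cell transcriptome columns (E to H) match none in the sample titles (A to D), and these columns stand for the group only.

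Of 76 groups of identical rows (159 symbols) 1 row each was kept, which left 15771. Changes were tested with limma on log2(CPM + 1), with only the compared groups in each fit. A gene needed a CPM of 1 in as many samples as the smaller group, and calls needed a Benjamini-Hochberg adjusted p under 0.05 over all genes tested and a change of at least 1. Members and gene lists were chosen with earlier results of these data known. Named members were the 12 highest in 2-cell transcriptomes, the 5 at each end of heavy against light, the 3 highest in GV oocytes, zygotes and blastocysts, the 3 on each side of the threshold, and families. Families were planned on proteins, but transcripts (blastn 2.17.0+) were used in their place because no protein table was used here. Promoters are from RefSeq GRCm38.p6, whose coordinates are not those of the deposited build. The limma fit was tested on simulated counts. For heavy and light fractions these were drawn as sums over fractions, not for single fraction libraries.

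Heavy and light values with the same letter come from 1 gradient and are paired. For other comparisons same-letter correlations of deviations ran from -0.08 to 0.20, and no comparison had all above 0.1. The alternatives were a pseudocount of 0.1, no filter, quantile normalization, all stages in 1 fit, edgeR on recovered reads (without fraction 7 of 2-cell gradient B), a replicate block, fractions 7 to 10 against 1 to 4, a mean of log2 values over fractions, leaving out each replicate, and other thresholds of the rule.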

Additional observations from a re-analysis of the deposited data

Results flagged for a closer look

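In the blastocyst transcriptomes 1 library stood apart from the other 3 for Gm773, an X-linked protein-coding gene, at 26.1 CPM against 3.78 to 6.88 CPM. The gap was 0.861 of the group's range, above Dixon's critical value for 4 samples. This was 1 of 29 groups examined, and chance marks about 1 in 20.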

How the results depend on the processing

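The number of members was 39 with a ratio of 8, 37 with 20 CPM, and 60 to 67 with single libraries left out. In heavy against light fractions 1 member was called higher and 0 lower. Percentages in brackets are the shares of all genes called the same way. The higher count was 5 with a pseudocount of 0.1 (1.51%), 0 with no filter (0%) and 26 with all stages in the fit (10.01%). It was 0 with edgeR (0.445%) and 0 with the gradient as replicate block (0.536%). Fractions 7 to 10 against 1 to 4 gave 5 (2.34%) and the mean of log2 values 4 (1.27%). Fits without single gradients gave 0 to 0 (0%). The lower count was 1 with the pseudocount (3.76%), 5 with all stages (16.55%) and 2 with fractions 7 to 10 (5.2%). It was 1 with the mean of log2 (6.55%) and 1 with quantile normalization (1.09%). For zygote to 2-cell, 39 were higher and 0 lower. edgeR called 25 higher (3.68%), and leaving out gradients gave 16 to 39 higher (1.82% to 4.95%). Leaving out gradients gave 0 to 1 lower (8.31% to 12.99%), with 1 without 2-cell gradient B. Fractions 7 to 10 called 1 lower (13.45%) and the mean of log2 2 (49.64%). For 2-cell to 4-cell, 0 were higher and 29 lower. Higher calls were 1 with quantile normalization (14.89%), 1 with all stages (23.85%) and 0 to 1 without gradients (1 without 2-cell gradient B, 6.02%). Lower calls were 10 with no filter (4.79%), 44 with all stages (32.78%), 7 with edgeR (8.43%) and 8 to 25 without gradients (7.45% to 12.96%). From GV to MII the 1 higher call became 2 with a pseudocount of 0.1 (14.27%), 3 with quantile normalization (28.95%) and 2 with edgeR (22.78%). From morula to blastocyst the 1 higher call became 2 with the pseudocount (25.94%) and 0 with quantile normalization (14.73%). It became 2 with all stages (22.96%) and 2 with the replicate block (22.96%). Without single libraries it was 0 to 2 (22.22% to 24.49%), with 0 without morula pool B. The 7 lower calls became 12 with quantile normalization (14.55%). Quantile normalization moved the median of all genes from -0.30 to -0.04 for heavy against light, from -0.82 to -0.07 for zygote to 2-cell, from -0.52 to 0.13 for 2-cell to 4-cell, from -0.19 to 0.38 for GV to MII and from 0.28 to -0.00455 for morula to blastocyst. edgeR, which rescales libraries by TMM, called 385 of 1051 genes higher for zygote to 2-cell, 2589 of 6214 for GV to MII and 2110 of 3985 for morula to blastocyst. The replicate letter as a block gave 35 higher for zygote to 2-cell (3.49%) and 21 lower for 2-cell to 4-cell (13.74%). Outside heavy against light the letters share only a name. Changes of sign: 4931428L18Rik heavy against light was -0.47 with the mean of log2, Gm11487 was 0.31 with edgeR, and Gm4779 from morula to blastocyst was -0.10 with quantile normalization and -0.0573 with edgeR. Gm3604 from 2-cell to 4-cell was 0.25 with quantile normalization and -1.56 to 1.70 without single gradients. Of the alternatives for named members, 594 kept direction and side of the threshold, 36 lost and 56 gained the call and 8 changed sign. The causes were not tested. Depth ran from 0.337 M reads in 2-cell and 0.141 M reads in 4-cell fractions, which limits low values there.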
